A study of Homo sapiens with 32 samples.

Results

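Stool coculture was set against monoculture in WT Caco-2 cells, an established human colon adenocarcinoma line that forms an enterocyte-like layer. The members were 4 of the 32 libraries of the series, chosen by their culture labels: 1 stool coculture with inulin, 1 stool coculture with mucin, 1 monoculture with inulin and 1 monoculture with mucin. All were kept in HoxBan, a device in which cells on a coverslip face an anaerobic bacterial agar (YCFA medium) from the oxygen side. None of the WT libraries carries an edited HIF1A gene or Cas9. Ranges between replicates came from 3 WT monoculture libraries without added inulin or mucin, called standard monoculture here. A further 3 WT libraries were cocultured with Faecalibacterium prausnitzii and served for comparison. The tests took their spread from the replicates of both these groups and from how far the stool effect differed between media. The labels do not give the stool donor, the dose, the hours of stool coculture or whether libraries came from separate cultures, so p-values measure only the spread between these libraries.

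Inulin is a plant fructan and mucin the glycoprotein of intestinal mucus, and gut bacteria ferment both to short-chain fatty acids. Epithelial cells are known to read bacterial products through pattern recognition receptors and NF-kB, through the aryl hydrocarbon receptor (AHR), which senses indoles, and through butyrate, which inhibits histone deacetylases. Bacteria beneath the cells also consume oxygen, which bears on HIF1, the hypoxia-inducible factor.

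The stool libraries held 5764366 counts with inulin and 4291872 with mucin, and the fibre monocultures 5064210 with inulin and 4206769 with mucin. Counts were per gene from QuantSeq, which reads the 3′ ends of transcripts, and levels are given as CPM, counts per 1000000 of the library size after TMM scaling. The 4 libraries were close to each other (correlations of 0.977 to 0.986 over all tested genes), closer than the 3 standard monocultures (0.959 to 0.969). Markers of intestinal epithelium summed to 4914 and 4759 CPM with stool and 4458 and 4582 CPM in the fibre monocultures. A list of 18 immune cell markers summed to 10.0 and 9.98 CPM with stool and 10.7 and 8.71 CPM without, most of it CD14, and CD2, MS4A1 and S100A8 were at 0 in all 4.

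The first question was whether any gene differed between stool coculture and monoculture by more than the spread between replicates. No gene passed. In edgeR's quasi-likelihood test over 12261 genes, 0 were called at an adjusted p under 0.05 (0% in either direction, smallest adjusted p 0.9997). At an unadjusted p under 0.05 there were 45 higher and 255 lower with stool, which is 0.367% and 2.08% of genes (2.45% together). That is fewer than the 613 genes expected by chance at this limit. DESeq2 called 0 higher and 1 lower gene, SNORD13. The standard error of a log2 fold change was 0.275 in the median over the 9621 genes of at least 5 CPM. The outcome rests on which libraries set the spread: a fit of the 4 libraries alone, with 1 residual degree of freedom, called 58 genes higher and 241 lower, and blocks for the WT library pairs found in the counts called 1 higher and 8 lower. Of the genes described below, the blocks called SNORD13 (adjusted p 0.000751 in edgeR), SCARNA13 and CBX6 (0.0179 each), and SCARNA22, SNORA79B and TNFRSF10D (0.0230 each). The pairs were chosen from the same counts after seeing the data. Blocking them lowered the fitted spread between replicates (coefficient of variation) from 0.214 to 0.101. Adjusted p-values from the blocks are thus not valid error rates, and nothing is drawn from them. Everything that follows is therefore a description of 2 stool libraries and 2 monocultures.

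For that description, a gene was counted where the log2 ratio of stool coculture to monoculture had the same sign in both media and the smaller ratio exceeded the range of log2 CPM over the 3 standard monocultures. By this rule 368 genes (3% of those tested) were higher and 533 (4.35%) lower with stool. The ratios had the same sign in both media for 3958 higher (32.3%) and 3847 lower genes (31.4%), and opposite signs for 4456 (36.3%). Across the 12261 genes the ratios in inulin and in mucin had a correlation of 0.313, where genes of 1 pair of libraries share their depth and composition. The ratios were small: their median size was 0.197 with inulin and 0.245 with mucin on the log2 scale, against a median range of 0.537 over the standard monocultures.

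**Figure D1:**
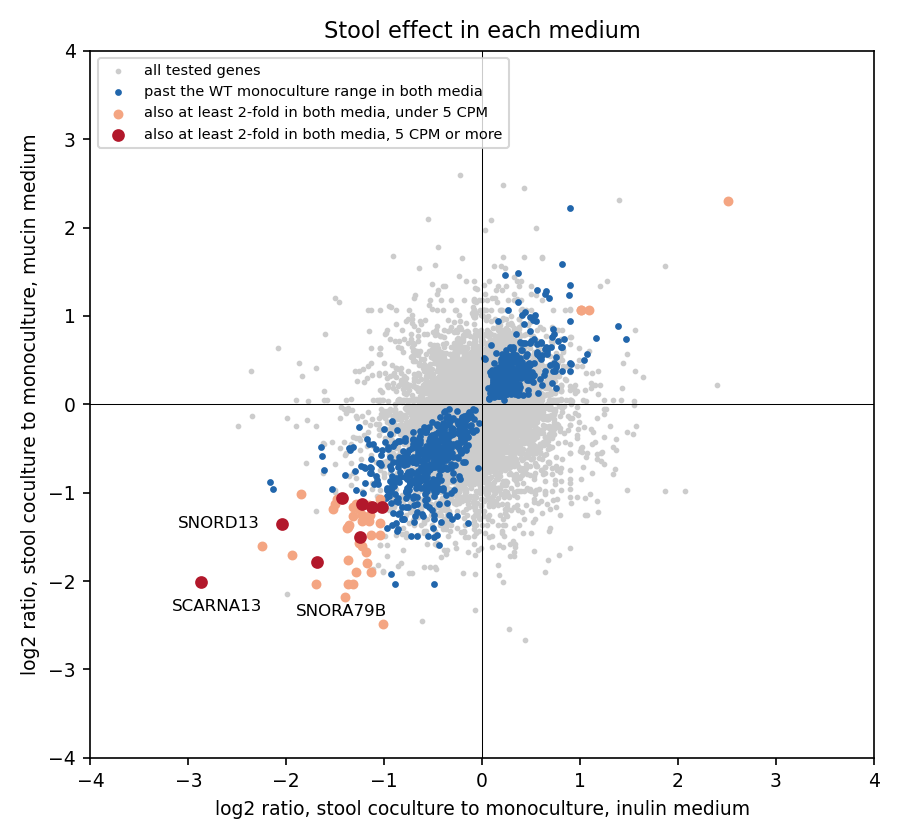
Each point is 1 of 12261 genes, with its log2 ratio of stool coculture to monoculture in inulin medium (x axis) and mucin medium (y axis). Blue points (same sign, past the standard monoculture range, labelled WT monoculture range) lie on both sides, whereas the 8 red points (also at least 2-fold and 5 CPM) are all lower with stool, and orange points are 2-fold genes under 5 CPM.

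When a difference of at least 2-fold in each medium was also required, 4 genes (0.0326%) were higher and 44 (0.359%) lower with stool. None of the 4 higher genes reached 5 CPM: they were SNORD14E, PIH1D2, EMP3 and CATSPER2P1. The largest of these differences, that of SNORD14E, was 11 and 7 counts with stool against 0 and 0 counts in the fibre monocultures. EMP3, which encodes an epithelial membrane protein, had 11 and 8 counts with stool against 4 and 3 counts without. Of the 44 lower genes 8 reached a mean of 5 CPM, which is 0.0652% of genes tested, and 4 of these 8 were small nucleolar or Cajal body RNAs.

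Small nucleolar RNAs (snoRNAs) guide chemical modification of ribosomal RNA, and small Cajal body RNAs (scaRNAs) do the same for the RNAs of the spliceosome. The H/ACA kind guides the conversion of uridine to pseudouridine and ends a few bases after an ACA. Many scaRNAs also carry the letters TGAG (UGAG in the RNA), which hold them in Cajal bodies. Below are the DNA-sense transcripts of the H/ACA members that were at least 2-fold lower with stool in both media and had at least 5 CPM, from GENCODE release 29 on GRCh38, with TGAG and the last ACA in capitals.
SCARNA13: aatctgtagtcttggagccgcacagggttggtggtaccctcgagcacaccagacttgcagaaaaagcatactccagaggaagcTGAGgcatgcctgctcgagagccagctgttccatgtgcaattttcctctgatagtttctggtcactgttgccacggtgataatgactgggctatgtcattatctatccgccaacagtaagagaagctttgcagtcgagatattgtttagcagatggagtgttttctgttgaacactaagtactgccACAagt
SCARNA22: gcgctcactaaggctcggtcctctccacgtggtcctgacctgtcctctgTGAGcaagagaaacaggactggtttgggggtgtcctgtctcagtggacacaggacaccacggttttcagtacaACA
SNORA79B: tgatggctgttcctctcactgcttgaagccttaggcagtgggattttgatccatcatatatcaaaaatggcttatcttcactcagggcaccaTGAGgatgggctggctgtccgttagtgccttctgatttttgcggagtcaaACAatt
The letters TGAG are not particular to these: 18 of the 26 tested snoRNA and scaRNA genes (69.2%) hold them on the transcribed strand, and 15 hold ACA within their last 10 bases. In SCARNA13 and SNORA79B 3 bases follow the marked ACA. In SCARNA22 0 bases do, and an unmarked aca, with 3 bases after it, stands directly before the marked one. Capitals there show the last ACA only, and which of them serves the RNA was not tested.

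SCARNA13 (chr14:95533355-95533629, minus strand, within SNHG10) had 1.04 and 1.59 CPM with stool against 10.2 and 7.63 CPM in the fibre monocultures. By the ratios with a prior count of 2, it was 7.32-fold lower with inulin and 4.03-fold lower with mucin. These rest on 6 and 7 counts with stool against 55 and 35 counts without. Its 3 standard monocultures lay at 4.09 to 6.73 CPM, so the stool libraries were below and the fibre monocultures above them. The log2 fold change was -2.76 ± 0.53 (SE), with an adjusted p of 0.9997 in edgeR.

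SCARNA22 (chr4:1974636-1974760, plus strand, within NSD2) was the most abundant scaRNA, with 53.2 and 56.9 CPM with stool against 144.5 and 119.6 CPM without. The stool values were under all 3 standard monocultures, which had 104.3 to 175.8 CPM, and the fibre monocultures were among them. F. prausnitzii coculture had 37.1, 25.5 and 88.6 CPM, so 2 of its 3 libraries lay below the stool libraries and 1 above. The log2 fold change was -1.26 ± 0.46 (SE) with stool and -1.43 with F. prausnitzii.

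SCARNA20, SCARNA1 and SCARNA18 were also lower with stool in both media. SCARNA20 had 0.866 and 2.50 CPM with stool against 5.18 and 5.23 CPM without, and SCARNA1 had 6 and 1 counts with stool against 18 and 10 counts. SCARNA18, which the annotation lists as a snoRNA, had 6.93 and 7.49 CPM with stool against 20.3 and 12.2 CPM without, and its ratio in mucin (-0.68 on the log2 scale) was short of the standard monoculture range of 0.78. With it, 4 of 5 tested scaRNAs were lower past the range, where 4.35% of all genes were. Summed, the 4 genes annotated as scaRNA came to 58.9 and 64.4 CPM with stool against 175.6 and 141.4 CPM in the fibre monocultures, and SCARNA22 made up most of each sum. The sums were 41.8, 32.2 and 97.6 CPM in F. prausnitzii coculture against 117.4, 202.9 and 144.7 CPM in standard monoculture, so cocultures of both kinds lay below every monoculture.

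**Figure D2:**
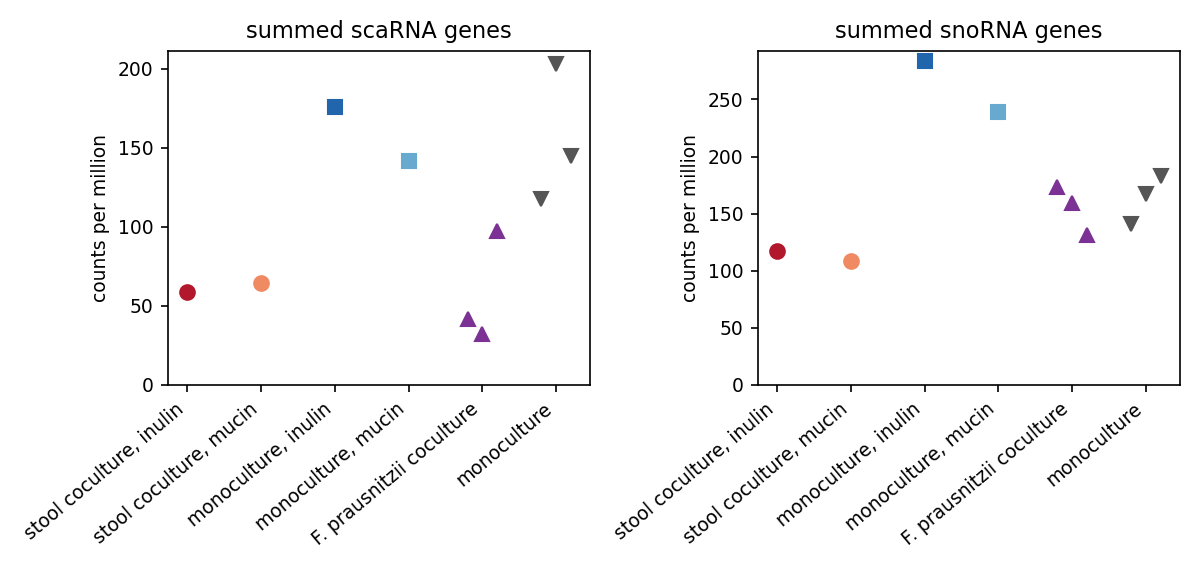
Summed CPM of the genes annotated as scaRNA (left) and as snoRNA (right) in each of the 10 WT HoxBan libraries, 1 point a library. The stool libraries (58.9 and 64.4 CPM for scaRNAs, 117.3 and 108.9 CPM for snoRNAs) lie below the monocultures with and without fibre in both panels.

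Of 22 tested genes annotated as snoRNA, SCARNA18 among them, 12 were lower and 4 higher with stool in both media, and 5 were lower and 1 higher past the standard monoculture range. SNORD13, a box C/D RNA that acts in the maturation of the small ribosomal RNA, had 23.6 and 26.8 CPM with stool against 98.4 and 69.1 CPM in the fibre monocultures. Its log2 fold change was -1.72 ± 0.30 (SE), with the smallest unadjusted p of the genes named here (0.00012 in edgeR, adjusted p 0.9997). The standard monocultures had 30.8 to 39.7 CPM, much nearer to the stool libraries than to the fibre monocultures. SNORA79B (chr14:20323179-20323326, minus strand, within CCNB1IP1) had 20.6 and 17.0 CPM with stool against 67.3 and 59.7 CPM without. Here the stool values lay among the 3 standard monocultures (15.9 to 39.7 CPM) and the fibre monocultures above them. SNORA23 had 4 and 7 counts with stool against 26 and 26 counts. Summed over all snoRNAs, the stool libraries had 117.3 and 108.9 CPM against 284.0 and 239.5 CPM in the fibre monocultures.

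The genes in whose introns or exons these RNAs lie did not share the difference in size. NSD2, the host of SCARNA22, had log2 ratios of -0.11 with inulin and -0.09 with mucin, and CCNB1IP1, the host of SNORA79B, 0.05 and 0.02. IPO7, around SNORA23, had 0.09 and 0.15, and PPP1R8, around SCARNA1, 0.14 and 0.01. SNHG10, a low non-coding host of SCARNA13, had -0.54 and -0.16. QuantSeq primes on stretches of A, which these small RNAs mostly lack at their ends, and how they entered the libraries was not tested.

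**Figure D3:**
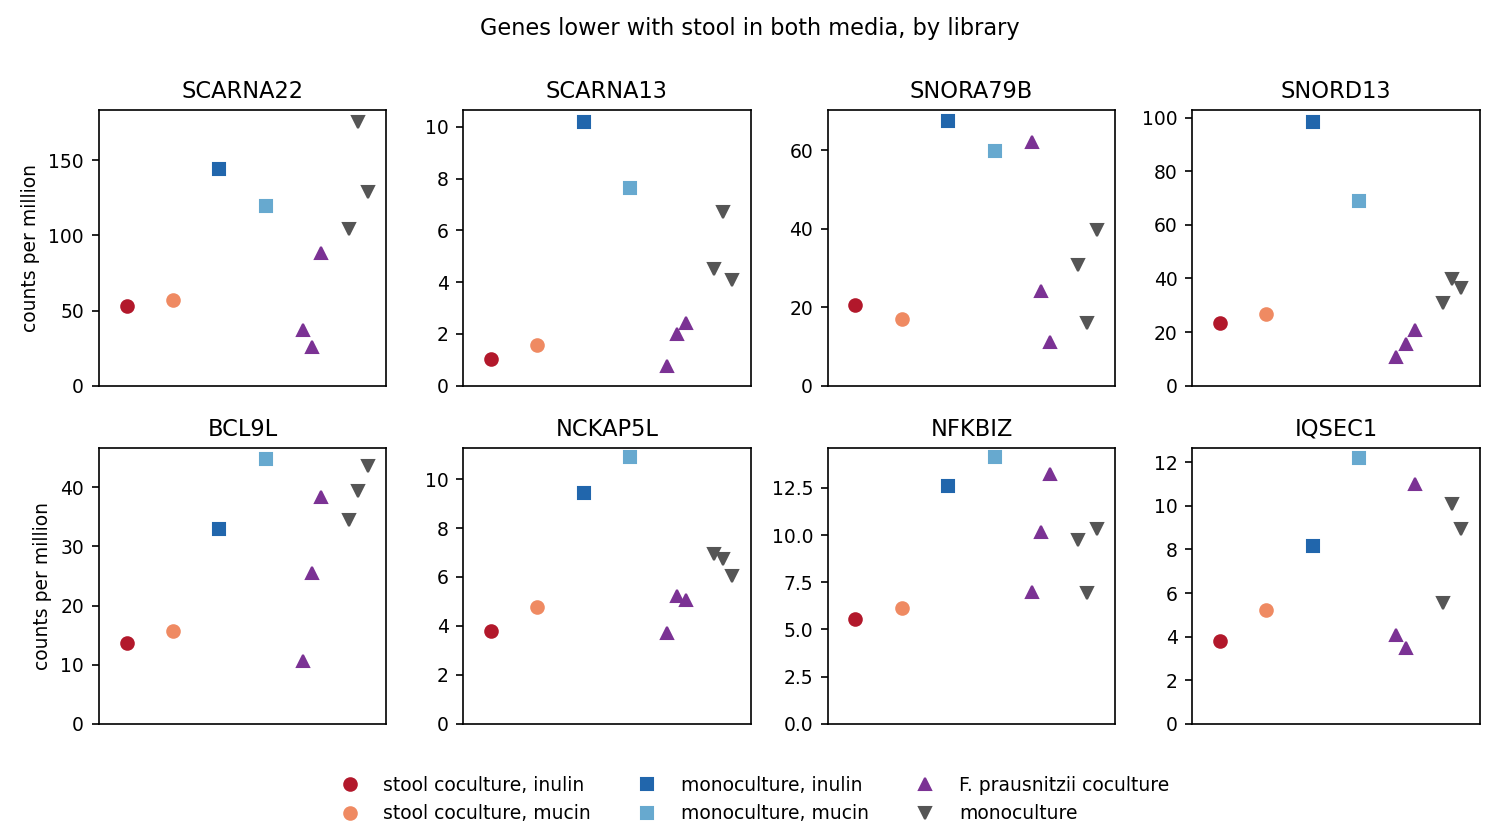
CPM of the 8 genes of at least 5 CPM that were 2-fold lower with stool in both media, 1 point a library, by group on the x axis (linear y axes from 0). In each panel both stool libraries lie below both fibre monocultures, and the 3 F. prausnitzii and 3 standard monoculture libraries show the spread between replicates.

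The other 4 of the 8 genes encode proteins. BCL9L, a coactivator of beta-catenin in WNT signalling, had 13.7 and 15.7 CPM with stool against 32.9 and 44.9 CPM without, and a log2 fold change of -1.39 ± 0.44 (SE). Its standard monocultures had 34.4 to 43.6 CPM, so the stool libraries were the ones that stood apart. F. prausnitzii coculture spread over 10.7, 25.5 and 38.3 CPM, across the stool values. NFKBIZ, an inducible nuclear regulator of NF-kB, had 5.54 and 6.13 CPM with stool against 12.6 and 14.2 CPM without (-1.19 ± 0.35, SE). NCKAP5L, a microtubule-associated protein, had 3.81 and 4.76 CPM with stool against 9.43 and 10.9 CPM (-1.25 ± 0.32). IQSEC1, an exchange factor for the ARF6 GTPase, had 3.81 and 5.22 CPM with stool against 8.14 and 12.2 CPM (-1.16 ± 0.52). It was the member nearest to the limit of 2-fold, with a ratio of 2.03 in inulin at a prior count of 2. By the same measure CBX6, a Polycomb protein, lay just outside the limit in mucin (log2 ratio -0.998). CBX6 had 21.1 and 26.1 CPM with stool against 49.6 and 52.5 CPM. Its stool values lay within standard monoculture (18.3 to 28.4 CPM).

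Where the levels lay beside standard monoculture differed between genes. Of the 8 lower genes, 5 had both fibre monocultures above all 3 standard monocultures and 7 had both stool libraries below them. Of all 533 genes lower past the range, 306 (57.4%) had both fibre monocultures above standard monoculture, where 16.9% of all tested genes did, and 255 (47.8%) had both stool libraries below it, where 13.8% did. Of the 368 higher genes, 234 (63.6%) had both fibre monocultures below standard monoculture (15.5% of all tested genes) and 145 (39.4%) had both stool libraries above it (13.4%). The same 4 libraries chose these genes, which moves such shares away from the background, and nothing is drawn from their size.

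Among coding genes, direction went with length. The 483 protein-coding genes lower past the range had a median coding length of 1728 bases and a median transcript of 4671 bases, against 901.5 and 2339 bases for the 332 higher ones and 1353 and 3451 bases for all 11156 tested with a GENCODE transcript. Median GC content was 55.1% in the lower genes, 45.0% in the higher and 48.2% in all. With coding genes split by coding length into 4 bins of about equal size, 5.34% of the shortest bin were higher and 2.33% lower with stool, and 1.44% of the longest bin were higher and 6.35% lower. The level differed too, with a median of 12.6 CPM in the lower genes and 41.8 CPM in the higher. Within a library, the median log2 CPM of the longest bin minus that of the shortest was -0.73 and -0.75 with stool against -0.59 and -0.58 in the fibre monocultures. It was -0.55 to -0.66 in standard monoculture and -0.43 to -0.93 in F. prausnitzii coculture, so the stool libraries were inside the spread of the other coculture. The part of this measure in the gene differences was not tested.

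Further genes lower past the range are given here as examples that were chosen after their values were seen. MAML1, the coactivator of Notch, had 30.3 and 34.9 CPM with stool against 54.4 and 59.7 CPM. ZFHX3, a zinc finger and homeobox factor, had 38.1 and 41.3 CPM with stool against 70.7 and 88.5 CPM. CREBBP, a histone acetyltransferase, had 23.6 and 25.2 CPM with stool against 36.1 and 36.6 CPM, and MYCN 18.9 and 14.7 CPM against 32.2 and 25.3 CPM. None of these passed the test (adjusted p 0.9997 in edgeR). Stool lay below standard monoculture for MAML1 (40.1 to 48.4 CPM), ZFHX3 (70.9 to 100.9 CPM) and CREBBP (34.8 to 44.2 CPM). For MYCN both stool libraries lay within it (14.6 to 19.5 CPM). TNFRSF10D, a decoy receptor for the death ligand TRAIL, had 26.8 and 17.0 CPM with stool against 49.0 and 40.7 CPM, above the 14.1 to 16.9 CPM of standard monoculture in every one of the 4.

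No member of any gene list was called, and the lists are described by counts, to be read beside the shares over all genes (32.3% higher and 31.4% lower in both media, 3% and 4.35% past the range). The lists with the most members higher with stool are given first. Of 38 nuclear-encoded genes of the respiratory chain, 31 were higher and 3 lower in both media, and 10 were higher past the standard monoculture range (3% of all genes were), with a median log2 fold change of 0.16 against 0.00 over all genes. SDHC, a membrane anchor of succinate dehydrogenase, had 245.1 and 268.8 CPM with stool against 200.3 and 212.9 CPM without. ATP5PB, a subunit of ATP synthase, had 234.7 and 262.5 CPM with stool against 196.5 and 209.6 CPM. In both genes both stool libraries lay above both fibre monocultures, by log2 ratios of 0.26 to 0.34. Summed over the list, the stool libraries had 10572 and 11500 CPM against 9440 and 9871 CPM in the fibre monocultures, which lay below all 3 standard monocultures (10096 to 10627 CPM).

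Of the 13 protein-coding genes of the mitochondrial genome, 12 were higher with stool in both media and 0 lower, and 0 were past the standard monoculture range, which for MT-CO1 was 0.97 on the log2 scale. MT-CO1, a catalytic subunit of cytochrome oxidase, had 3019 and 2535 CPM with stool against 2161 and 1858 CPM in the fibre monocultures, while standard monocultures had 2125 to 4149 CPM. The mitochondrial share of counts was 9.04% and 8.04% with stool against 7.70% and 7.29%, inside the 6.36% to 15.5% of standard monoculture.

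Of 38 ribosomal protein genes, 31 were higher and 0 lower with stool in both media, and 7 were higher past the range, with a median log2 fold change of 0.16. RPS7, of the small subunit, had 1282 and 1381 CPM with stool against 1026 and 932.3 CPM without, where standard monocultures had 1096 to 1203 CPM. The sums were 77282 and 76472 CPM with stool against 68278 and 68012 CPM, with standard monoculture at 65993 to 75756 CPM, and the median over these 38 genes was 0.21 with F. prausnitzii. Of 34 proliferation genes 25 were higher and 1 lower in both media, with a median of 0.14 and 0 members past the range. Their sums were 6600 and 6836 CPM with stool against 6216 and 6043 CPM in the fibre monocultures, and the fibre monocultures were again below all 3 standard monocultures (6707 to 7932 CPM). The intestinal stem cell marker LGR5, the receptor for R-spondins, had 9.18 and 14.1 CPM with stool against 5.55 and 5.88 CPM, and 4.71 to 6.61 CPM in standard monoculture. Of 16 tested WNT and stem cell genes, LGR5 was higher and PROX1 lower past the range, 1 gene each way, and the list's median log2 fold change was -0.004.

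Smaller lists also had more members higher than lower in both media: 8 and 4 of 13 heat shock proteins, 8 and 3 of 18 endoplasmic reticulum chaperones, 11 and 5 of 25 genes of cholesterol synthesis, and 4 and 1 of 8 antimicrobial genes. Glycolysis had 5 higher and 6 lower of 24.

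Other lists had more members lower than higher. Of 14 targets of NRF2, the regulator of antioxidant genes, 9 were lower and 2 higher in both media, with a median log2 fold change of -0.18 and 1 lower past the range. Of 24 genes of the integrated stress response, which slows translation under stress, 14 were lower and 8 higher in both media, and 2 were lower past the range. TRIB3, a pseudokinase induced by that response, had 11.6 and 13.4 CPM with stool against 20.0 and 19.8 CPM. CEBPB, a transcription factor, had 77.2 and 62.4 CPM with stool against 103.4 and 113.7 CPM. Standard monocultures had 16.6 to 19.3 CPM of TRIB3, above the stool libraries. They had 47.1 to 56.7 CPM of CEBPB, below the stool and the fibre libraries. ATF4, the factor at the head of the response, had 354.7 and 335.0 CPM with stool against 342.6 and 357.3 CPM. Of 19 p53 targets 10 were lower and 5 higher (median -0.23), with 1 past the range, and of 28 enterocyte genes 11 were lower and 3 higher (median -0.21), with 0 past it. The share of 1 in 19 is near the 4.35% of all genes. JAG2, a Notch ligand, was lower at 14 and 12 counts with stool against 32 and 34 counts. It was the 1 of 9 tested genes of the Notch list past the range. The list median was -0.41, but it ran from -0.43 to 0.09 over alternative processing. Its stool libraries, at 2.42 and 2.72 CPM, lay above the standard monocultures (1.56 to 2.24 CPM) and below the fibre monocultures (5.92 and 7.41 CPM). CYP3A5, a xenobiotic oxidase, had 10.2 and 9.30 CPM with stool against 17.4 and 13.5 CPM.

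**Figure D4:**
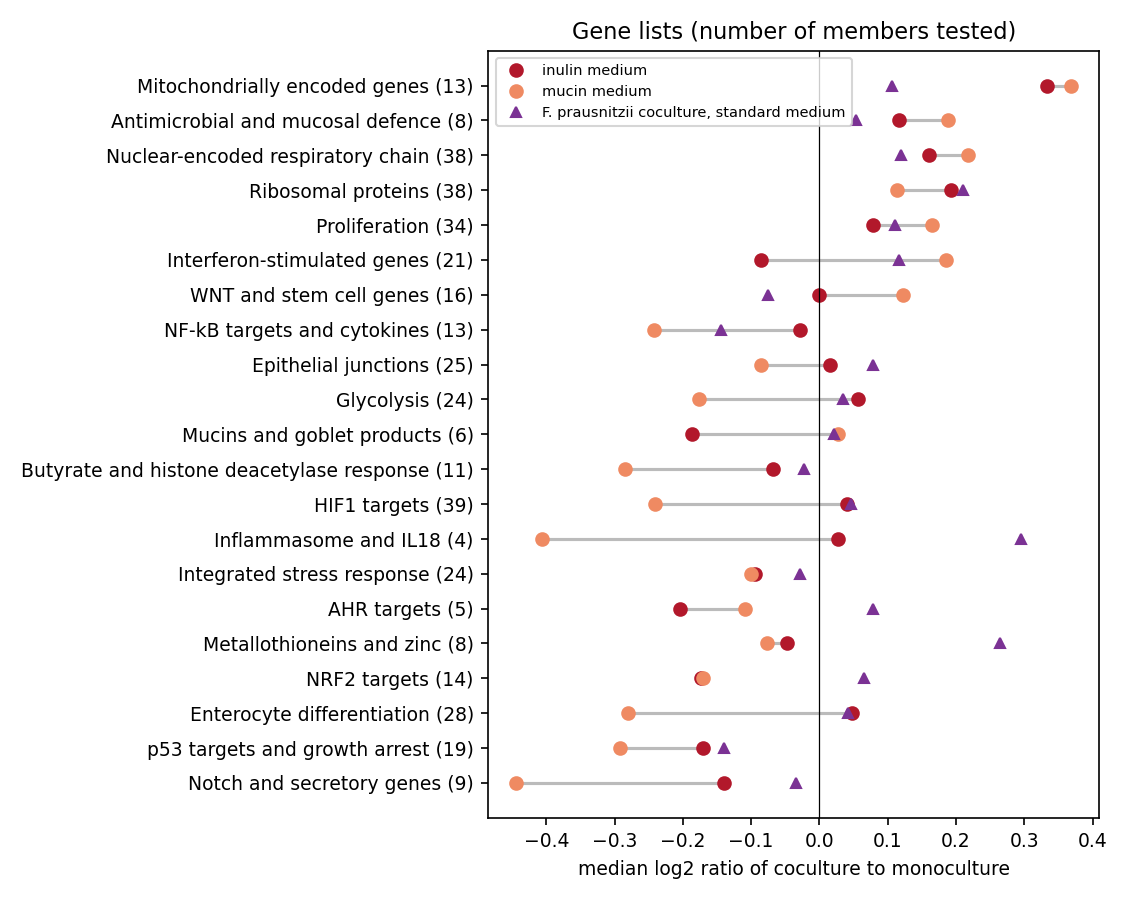
Median log2 ratio of coculture to monoculture for the members of 21 gene lists (x axis), with circles for stool in inulin and in mucin medium, triangles for F. prausnitzii and the number of members tested in brackets. Mitochondrially encoded genes lie highest, at 0.33 in inulin and 0.37 in mucin, and several lists, among them HIF1 targets, lie on different sides of 0 in the 2 media.

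Lists of genes that bacteria are known to induce in epithelium held 0 members past the range. Of 13 tested NF-kB targets and cytokines, 3 were higher and 6 lower in both media and 0 were past the range. NFKBIZ, the regulator of NF-kB given above as lower past the range, was not a member of this list. CCL20, a chemokine of the epithelium, had 12.6 CPM with stool against 5.55 CPM in inulin, but 7.26 CPM with stool against 9.15 CPM in mucin. NFKBIA, the inhibitor that NF-kB induces, had 53.5 and 59.9 CPM with stool against 65.7 and 73.0 CPM. Standard monocultures had 57.0 to 82.2 CPM, so only the stool library in inulin lay below them. Of 21 interferon-stimulated genes 5 were higher and 3 lower with 0 past the range, and 0 of 8 tested pattern recognition receptors, 0 of 8 antimicrobial and 0 of 11 butyrate response genes were past it. CYP1A1, the classical AHR target, had 303.4 and 223.2 CPM with stool against 395.5 and 326.8 CPM in the fibre monocultures, and 63.3 to 133.0 CPM in standard monoculture. Its log2 fold change was -0.47 ± 0.28 (SE), short of the range of 1.07, and 0 of 5 tested AHR targets were past the range. Over all genes 3% were higher and 4.35% lower past it. Lists this small can hold 0 at those shares, so nothing is drawn from these counts.

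In the HIF1 pathway, the subject of the study, more targets were lower than higher with stool, which was not tested. Of 39 tested HIF1 targets 6 were higher and 15 lower in both media (15.4% and 38.5%, against 32.3% and 31.4% of all genes). The list's median log2 ratio was 0.04 in inulin and -0.24 in mucin. Past the range 0 were higher and 2 lower. These were EGLN1, an oxygen-sensing prolyl hydroxylase, with log2 ratios of -0.20 and -0.36, and PFKFB3, an activator of glycolysis, with -0.19 and -0.32. IL18, the epithelial cytokine, had 19.9 CPM with stool against 16.6 CPM in inulin, and 9.30 CPM with stool against 17.4 CPM in mucin, so its direction differed between media. HIF1A had 205.2 and 198.0 CPM with stool against 204.4 and 162.5 CPM. PGK1, a glycolytic HIF1 target, had 672.7 and 640.8 CPM with stool against 654.7 and 704.2 CPM, and EGLN3 11 and 9 counts with stool against 13 and 14 counts.

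The response was then compared between media and with that to F. prausnitzii, a single butyrate-producing species. In edgeR the stool effect differed between inulin and mucin for 0 genes (0%), with 40 (0.326%) at an unadjusted p under 0.05. The effect of stool differed from that of F. prausnitzii for 0 genes (0%), with 124 (1.01%) at an unadjusted p under 0.05, and DESeq2 called 1 gene. Both counts at an unadjusted p under 0.05 in edgeR were below the 613 genes expected by chance. The effects come from different libraries. RNU4ATAC, a small nuclear RNA of the minor spliceosome, had 541.3 and 510.9 CPM with stool against 1018 and 791.3 CPM in the fibre monocultures, but 1234, 1116 and 1412 CPM with F. prausnitzii against 446.7, 764.1 and 713.5 CPM in standard monoculture. Its effects differed by -1.74 on the log2 scale, with an unadjusted p of 0.000248 and an adjusted p of 0.9997 in edgeR. Among other named genes, NFKBIZ (difference -1.35), LGR5 (1.43), SNORA79B (-1.93) and JAG2 (-1.51) were examples with effects of opposite sign. Their log2 fold changes with F. prausnitzii were smaller in size than those with stool, at 0.16, -0.44, 0.18 and 0.16. The adjusted p of the difference was 0.9997 for each in edgeR. SCARNA13, SCARNA22 and SNORD13 were lower with both stool and F. prausnitzii.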

How the data were processed

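The authors deposited raw counts per Ensembl gene from QuantSeq 3′ libraries, on GRCh38 per the labels. No source used here names the aligner, the counter or the strand setting, so overlapping genes, and small RNAs with their hosts, may share reads. The 10 WT HoxBan libraries were fitted together in edgeR 4.0.16 (R 4.3.3): TMM, filterByExpr, quasi-likelihood tests with a stool term, a term for each medium and one for F. prausnitzii, 5 residual degrees of freedom, two-sided, with Benjamini-Hochberg adjustment at 0.05. Ratios in single media used log2 CPM with a prior count of 2. Genes were named as those 2-fold lower or higher in both media, past the standard monoculture range and at 5 CPM or more, list members, and IL18, HIF1A, PGK1 and EGLN3; others were chosen after their values were seen. Members and lists were chosen with earlier results of these data known. Names came from Ensembl identifiers (40995 of 60107 rows) and GENCODE 29 (15536). Alternatives included DESeq2 1.42.0, other filters, scalings, library sets and designs, and leaving out each library. Steps were tested on simulated data. Figures used matplotlib 3.10.9 and Python 3.11.15. Reads carry no molecular identifiers, so precision from counts covers counting error only.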

Additional observations from a re-analysis of the deposited data

How the results depend on the processing

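All 42 genes followed kept their sign under each alternative that keeps both media and tests the gene (18 or 19 a gene). The same 4 single libraries set the stool effect in all of these, so the sign could hardly turn and stability was not tested. Of 23 list medians 17 kept their sign. Those of the Notch, WNT and stem cell, antimicrobial, metallothionein and mucin lists turned, and that of interferon-stimulated genes reached 0. The counts varied with the processing. Stool called 1 higher and 5 lower genes with no filter on low counts, 0 and 1 with DESeq2, 0 and 1 with the mitochondrial share as a covariate, 58 and 241 in the 4 single libraries only, and 1 and 8 with the WT library pairs as blocks, an alternative chosen after seeing the data. With the range rule added, the lower calls were 5 with no filter, 1 with DESeq2, 1 with the covariate and 6 with the pairs. Stool differed from F. prausnitzii for 1 gene with DESeq2, 4 with no filter and 2 with the pairs. The size rule gave 23 higher and 90 lower genes with no filter, 0 and 8 at a mean of at least 5 CPM, 2 higher with upper-quartile factors, 2 higher without F. prausnitzii coculture, and 5 higher with 1 mean per group, while all 32 libraries gave 64 lower. Genes past the standard monoculture range numbered 615 higher and 980 lower with no filter and 244 higher at 5 CPM. Leaving out each library in turn gave 333 to 1132 genes past the range in the higher and 533 to 1390 in the lower direction, most when 1 of the 3 standard monocultures was left out (1012 and 1390 without library 16, 1132 and 1205 without 19, 817 and 1116 without 29), and 2 to 8 higher and 44 to 50 lower by the size rule. A range over fewer libraries is narrower. Leaving out 1 of the 4 single libraries gives the effect in the other medium only, so no gene can be counted in both media. Over those 4 fits the sign turned for 5 genes: CCL20 spanned -0.35 to 1.18, ATF4 -0.11 to 0.043, IL18 -0.92 to 0.25, HIF1A -0.0017 to 0.29 and PGK1 -0.15 to 0.032. No paired analysis by replicate number was possible because the compared groups share no number in the labels. Each standard monoculture had its highest correlation among the WT replicates with 1 F. prausnitzii library (0.976 to 0.983), but these pairs are not given by the labels.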

Other observations

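Some genes differed in 1 medium only, outside the description by both media. CREB3L3, a transcription factor of lipid metabolism in liver and intestine, had 9.07 CPM with stool against 26.4 CPM in mucin, but 14.5 CPM with stool against 16.1 CPM in inulin. Enterocyte genes had a median log2 ratio of -0.28 in mucin and 0.05 in inulin, and HIF1 targets -0.24 and 0.04. The 4 tested genes of the inflammasome and IL18 list had a median of -0.41 in mucin and 0.03 in inulin. No gene passed edgeR's test for a difference between media, and the differences of list medians were not tested.

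A few genes past the standard monoculture range, chosen after their values were seen, lay at different places beside standard monoculture. FTL, the ferritin light chain, had 1798 and 1761 CPM with stool against 1952 and 2090 CPM in the fibre monocultures. FN1, fibronectin, had 3462 and 3407 CPM with stool against 3191 and 3071 CPM, where all 3 standard monocultures had 1994 to 2163 CPM. MGST2, a glutathione transferase, had 83.3 and 104.3 CPM with stool against 56.4 and 69.1 CPM, and 79.6 to 111.4 CPM in standard monoculture, so the fibre monocultures were the low ones. SMAD3, a mediator of TGF-beta signalling, had 20.1 and 24.7 CPM with stool against 28.9 and 31.8 CPM, and 34.9 to 42.6 CPM in standard monoculture.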
